A study of Mus musculus with 8 samples.

Results

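The 10 genes described here carry the insulin signal inside a cell and were followed in mouse pancreatic islets. They are the receptors Insr and Igf1r, the adaptors Irs1 and Irs2, the kinase subunit Pik3r1, the kinases Akt1 and Akt2, and the transcription factors Foxo1, Foxo3 and Foxo4. They were taken by name, and 10 of 10 were found among the 15985 gene symbols of the table, each under a single Ensembl identifier. In 8 mice aged 13 to 16 months, the mean normalized value of Irs2 was about 2.44-fold higher in islets labelled knockout. Irs2, Irs1 and Foxo1 lay above every control in all knockout libraries, and Foxo3 was lower. None of the 10 passed the adjusted threshold over all genes in the main fit, and Irs2 came closest (adjusted p = 0.0524, limma).

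Islets were isolated from 4 KO animals of the genotype Ins-Cre;Sox9fl/fl and from 4 WT animals, of which WT1 was Sox9fl/fl, WT2 Sox9fl/+, WT3 Sox9+/+ and WT4 Sox9+/fl. Sox9 is known as a regulator of pancreatic progenitors and of ducts, and Cre under the insulin promoter is meant to delete it in beta cells from embryonic life onward. No WT animal carried Cre, so an effect of Cre and one of Sox9 deletion cannot be told apart. All animals were of mixed strain, and the study's methods describe the sequenced animals as male. KO and WT are used here as the labels give them.

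Insulin and IGF1 bind receptor tyrosine kinases, which phosphorylate the adaptors IRS1 and IRS2. The adaptors bind the regulatory subunit p85, encoded by Pik3r1, of phosphoinositide 3-kinase, whose lipid product recruits AKT to the membrane, and AKT then phosphorylates FOXO proteins, which leave the nucleus. In beta cells IRS2 is known for its part in growth and survival, its gene is known to be induced through CREB when cAMP and calcium rise, and nuclear FOXO1 is known to act on beta cell identity and replication. These steps act on proteins, while the measurements here are of RNA.

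Irs1 and Irs2, the pair of adaptor genes that lay higher in KO, each have a long first exon with nearly all of the coding sequence, and both are annotated with 1 transcript of 2 exons. Their upstream sequences are shown because both genes lay higher in KO. Each line gives the 250 bases before the RefSeq start in GRCm38.p6, on the minus strand of the genome as the gene is read, at chr8:11008930-11009179 for Irs2 and chr1:82291440-82291689 for Irs1. The RefSeq starts of Irs2 and Irs1 both lie upstream of their GENCODE M21 gene starts. Capitals mark matches to the motifs searched on both strands: TGTTTAC (the FOXO or DAF-16 binding element), CAAAACA (the core of the insulin response sequence, TGTTTTG when read from the other strand), TGACGTCA (the cAMP response element) and TGACG (a shorter part of that element, CGTCA from the other strand).
Irs2: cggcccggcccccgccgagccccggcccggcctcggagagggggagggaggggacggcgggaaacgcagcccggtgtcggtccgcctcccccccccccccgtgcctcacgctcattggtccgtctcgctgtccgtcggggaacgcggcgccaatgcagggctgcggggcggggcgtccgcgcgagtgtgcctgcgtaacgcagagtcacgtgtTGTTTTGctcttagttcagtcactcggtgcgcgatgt
Irs1: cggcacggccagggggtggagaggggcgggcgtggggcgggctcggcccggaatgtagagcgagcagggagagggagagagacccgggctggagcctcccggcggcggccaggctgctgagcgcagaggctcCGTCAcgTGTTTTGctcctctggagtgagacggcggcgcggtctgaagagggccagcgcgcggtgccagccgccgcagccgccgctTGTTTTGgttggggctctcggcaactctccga
The Irs2 window held CAAAACA once, 37 bases before the start, and the Irs1 window held it 111 and 32 bases before the start, with TGACG at 118 bases. CAAAACA occurs in 5.56% and TGACG in 17.8% of 32851 RefSeq windows of the same length. Windows were found for 8 of the 10 members, 13 windows in all. Akt1, Akt2 and Pik3r1 had several starts, and so more windows in which a motif could occur. Among the others, Akt1 held TGTTTAC 161 bases before a start, though not in all its windows (3.17% of all windows). Foxo3 held TGACG, as did some but not all windows of Pik3r1 and Akt2. No motif was found for Foxo1 or Igf1r, and TGACGTCA (1.55% of all windows) was found in none. A match is a run of letters and does not show that a factor binds there.

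The libraries held an estimated 10.9995 to 19.1 M reads in KO and 13.1 to 26.2 M in WT, and 1 read corresponded to a normalized value of 0.659 to 1.38. The lowest value of any member was 163 (Pik3r1 in KO3), far above that of 1 read. Ins2, an insulin gene, took between 20.5% and 28.6% of each library, and all 12 beta cell markers listed were detected. Sox9 itself had 36.6, 16.4, 20.6 and 11.7 in KO1 to KO4, against 23.3, 37.3, 13.4 and 13.3 in WT1 to WT4, which does not check the labels (log2 fold change -0.02, adjusted p = 0.99, limma). Y-linked genes summed to 117 in WT3, against 2367 to 2712 in the other WT libraries and 2388 to 2549 in KO. WT3 thus stands apart from the sex the methods describe, and leaving it out brought no member past the threshold. Of 15960 genes tested, 6 were higher and 3 lower in KO at an adjusted p below 0.05. The islets were profiled in bulk, so fewer cells of a type and less RNA per cell cannot be told apart.

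**Figure D1:**
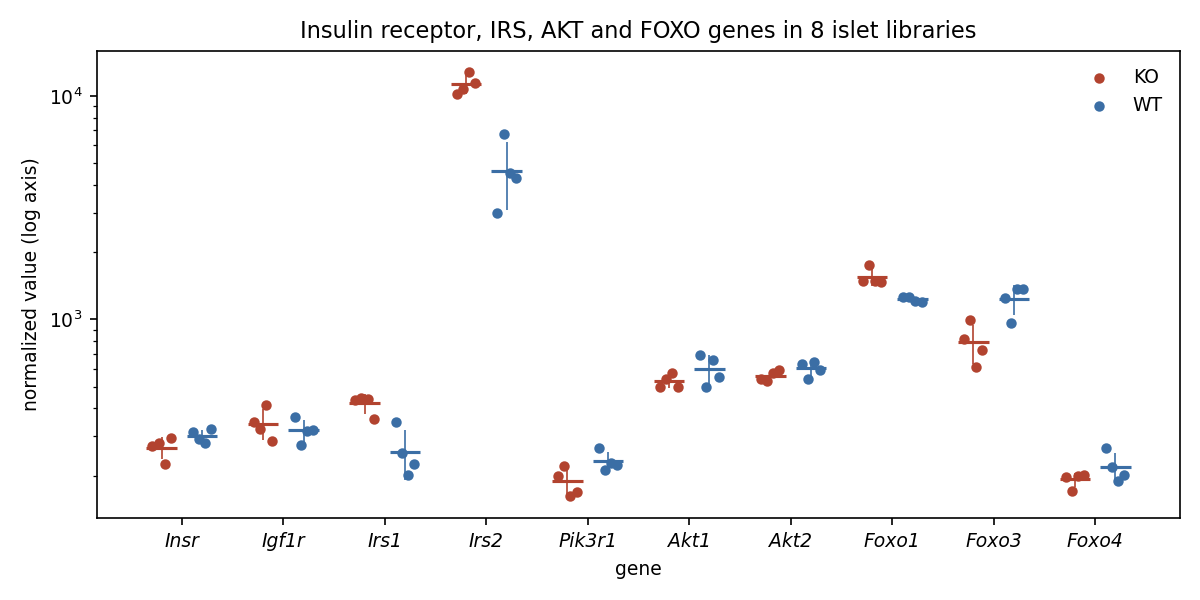
Normalized values (estimated reads divided by a library size factor) of the 10 genes in each library on a log axis, with KO left of WT for each gene, a horizontal bar at the group mean and a vertical line of 1 SD to either side (n = 4 each). Irs1, Irs2 and Foxo1 have all 4 KO points above all 4 WT points, Foxo3 overlaps through KO2 and WT2 alone, and the other 6 genes overlap.

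Both receptor genes overlapped between the groups. Insr (ENSMUSG00000005534, chromosome 8: 3122061 to 3279617, GRCm38), the insulin receptor, had normalized values of 270, 279, 225 and 295 in KO1 to KO4, against 314, 291, 281 and 322 in WT1 to WT4. KO4 alone of the KO libraries reached the WT range. The log2 fold change was -0.18 with an SE of 0.12 (95% interval -0.45 to 0.09, adjusted p = 0.642, limma). Igf1r (chromosome 7: 67952827 to 68233668), the receptor for IGF1, had 346, 324, 413 and 284 in KO1 to KO4, against 365, 275, 315 and 321 in WT1 to WT4. Its highest and its second lowest library were both KO, and the log2 fold change was 0.09 (SE of 0.14 and adjusted p = 0.853, limma). Its sign turned to -0.00036 without KO3 and to -0.07 with the acinar score as a covariate.

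Of the adaptors, Irs2 was by far the most abundant member. Irs2 (ENSMUSG00000038894, chromosome 8: 10984681 to 11008458, minus strand) had 10231, 10684, 12786 and 11422 in KO1 to KO4, against 2981, 6733, 4532 and 4281 in WT1 to WT4. The lowest KO library was above the highest WT library, WT2, and the KO values lay closer together than the WT values. The means were 11281 ± 1117 in KO and 4632 ± 1557 in WT (SD, n = 4 each). The log2 fold change was 1.34 with an SE of 0.20 (95% interval 0.89 to 1.79), which placed Irs2 at rank 12 of 15960 genes by p (adjusted p = 0.0524, limma). Among the 278 genes whose WT mean was at least that of Irs2, 16 had a log2 fold change above 1.

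The adjusted p of Irs2 sat near the threshold and moved across it. It was 0.00188 without WT2 (log2 fold change 1.54), 0.0285 with the acinar score as a covariate (1.63), 0.0494 with a replicate block, 0.0446 with a pseudocount of 1 and 0.0476 with a stricter filter, and under the other 12 alternatives it lay between 0.0529 and 0.26. The log2 fold change stayed between 1.15 and 1.63 over all 17.

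Irs1 (ENSMUSG00000055980, chromosome 1: 82233101 to 82291416, minus strand), the second broadly expressed adaptor, had 438, 447, 441 and 357 in KO1 to KO4, against 348, 252, 200.5 and 225 in WT1 to WT4. The groups did not overlap, but KO4 and WT1 were close. The means were 421 ± 42.6 in KO and 256 ± 64.7 in WT (SD, n = 4 each). The log2 fold change was 0.74 with an SE of 0.17 (95% interval 0.38 to 1.10, adjusted p = 0.135, limma), and over the alternatives it ran between 0.62 and 0.90 without passing the threshold.

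The kinase genes downstream of the adaptors had smaller log2 fold changes, and their groups overlapped. Pik3r1 (chromosome 13: 101680563 to 101768217), which encodes p85 alpha, had 200, 221, 163 and 169 in KO1 to KO4, against 267, 212, 229 and 222.1 in WT1 to WT4. KO2 alone reached the WT range, and the log2 fold change was -0.31 (SE of 0.14 and adjusted p = 0.471, limma). Akt1 (chromosome 12: 112653821 to 112674884) had 497, 543, 574 and 499 in KO1 to KO4, against 692, 497, 659 and 550 in WT1 to WT4. WT2 was the lowest of all 8 libraries, and the log2 fold change was -0.17 (SE of 0.13 and adjusted p = 0.668, limma). Akt2 (chromosome 7: 27591552 to 27640826), the AKT gene best known from insulin action in muscle, fat and liver, had 544, 529, 573 and 593 in KO1 to KO4, against 631, 541, 646 and 596 in WT1 to WT4. The groups overlapped, and the log2 fold change was -0.11 (SE of 0.10 and adjusted p = 0.760, limma). Of the 31-base words in Akt2 transcripts, 13.3% also occur in its pseudogene Akt2-ps, so part of its reads could be divided between both, while for every other member 1.01% or less of the words were shared with another gene.

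The FOXO genes had log2 fold changes of both signs. Foxo1 (ENSMUSG00000044167, chromosome 3: 52268336 to 52353221), the FOXO gene best known in beta cells, had 1482, 1756, 1492 and 1466 in KO1 to KO4, against 1266, 1259, 1205 and 1198 in WT1 to WT4. All KO libraries lay above all WT libraries, and the WT values lay close together, between 1198 and 1266. The log2 fold change was 0.33 with an SE of 0.10 (95% interval 0.11 to 0.54, adjusted p = 0.262, limma).

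Foxo3 (ENSMUSG00000048756, chromosome 10: 42181841 to 42276755) had 820, 990, 611 and 733 in KO1 to KO4, against 1247, 968, 1367 and 1365 in WT1 to WT4. The groups overlapped only through KO2 and WT2. The means were 789 ± 160 in KO and 1237 ± 188 in WT (SD, n = 4 each). The log2 fold change was -0.66 with an SE of 0.16 (95% interval -1.01 to -0.31, adjusted p = 0.160, limma). Leaving out WT2 gave -0.77 with an adjusted p of 0.0771, and no alternative brought Foxo3 past the threshold. Alpha cell markers, 8 of 8 in the table, all had negative log2 fold changes (median -0.37). At an unadjusted p below 0.05, 2 of them were lower (6.36% of all genes), and 0 passed the adjusted threshold (limma). They summed to 247732 to 359120 in KO and 295749 to 516326 in WT, and their mean centred log2 score was -0.06, 0.03, -0.48 and -0.19 in KO1 to KO4, against 0.26, 0.23, 0.31 and -0.10 in WT1 to WT4. Among KO libraries the order was that of Foxo3, among WT libraries it was not, and the part of these markers in the Foxo3 difference was not tested. Other cell types shifted too. Endothelial markers (10 of 10, median 0.17) and fibroblast and stellate markers (9 of 9, median 0.37) all had positive log2 fold changes. At an unadjusted p below 0.05, 2 and 0 of them were higher (4.34% of all genes), and 0 passed the adjusted threshold (limma). Their part in the difference of any member, Irs1 among them, was not tested.

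Foxo4 (X chromosome: 101254528 to 101260873) had 197, 171, 199 and 202 in KO1 to KO4, against 267, 218, 189 and 201 in WT1 to WT4. The groups overlapped, and the log2 fold change was -0.17 (SE of 0.14 and adjusted p = 0.699, limma).

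**Figure D2:**
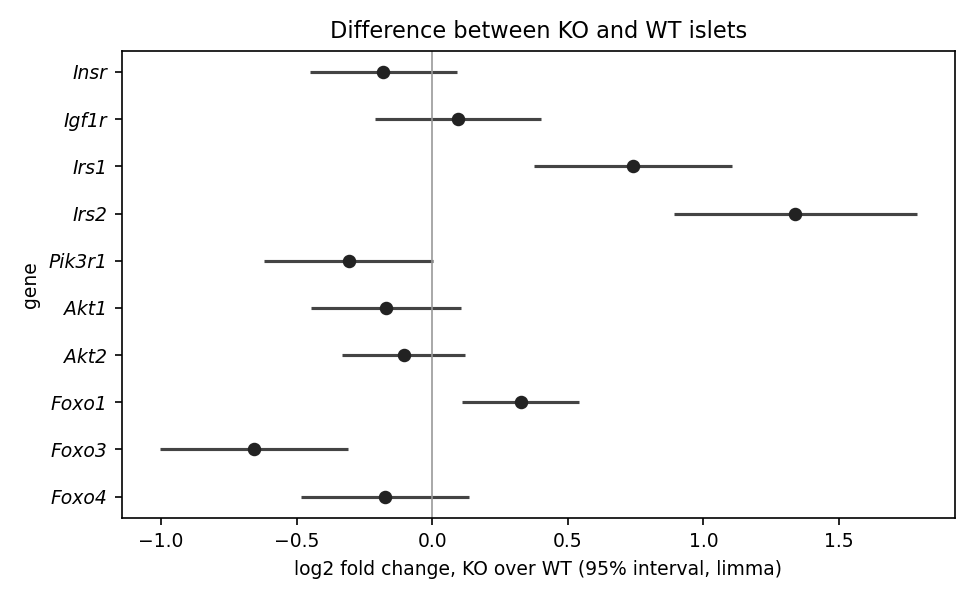
Log2 fold change of each of the 10 genes, KO over WT, with 95% intervals from limma, in the order from receptor to transcription factor. Irs1, Irs2 and Foxo1 lie above 0 and Foxo3 below 0 with intervals that exclude 0 before adjustment, and no adjusted p is below 0.05.

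By the test over all genes, 0 of the 10 were higher at an adjusted p below 0.05 (0.0376% of all genes tested) and 0 were lower (0.0188%). At an unadjusted p below 0.05, 3 of 10 were higher (4.34% of all genes) and 1 of 10 was lower (6.36%). With libraries scaled to equal sums the balance over all genes turned round, with 1163 genes higher and 483 lower, against 693 and 1015 as deposited. The groups did not overlap, with KO above, for 3 of 10 (2.67% of all genes) and, with KO below, for 0 of 10 (3.68%). The 10 genes were picked with earlier results known, so these shares describe them and no more. Their median log2 fold change was -0.14, against -0.03 for all genes. Scaling libraries to equal sums or by quantiles flipped the sign of none of the 10.

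Divided by the length of the longest coding transcript, Irs2 led at 1784 normalized reads per kb in KO and 733 in WT. In WT it was followed by Akt1 at 223, Foxo3 at 181, Foxo1 at 142, Akt2 at 133 and Foxo4 at 69.1. Pik3r1, Insr, Irs1 and Igf1r lay between 27.95 and 32.7 per kb in WT. In KO the order below Irs2 was Akt1 at 196, Foxo1 at 179, Akt2 at 123, Foxo3 at 115, Foxo4 at 60.8 and Irs1 at 46.0, with Igf1r, Insr and Pik3r1 between 26.5 and 29.97. Irs2 made up 97.1% to 97.9% of the summed Irs1 and Irs2 level per kb in KO libraries and 92.5% to 97.5% in WT libraries. Over all exons in place of the longest transcript, Foxo3 and Akt1 changed places in WT and Irs1 moved up to rank 7, while in KO Foxo1 at 179 passed Akt1 at 129 and Foxo3 at 104 passed Akt2 at 78.5 per kb.

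Of the summed level of Foxo1, Foxo3 and Foxo4, which leaves out Foxo6, the shares of Foxo1 and Foxo3 did not overlap between KO and WT. Per kb, Foxo1, Foxo3 and Foxo4 together came to 355 ± 33.3 in KO and 392 ± 24.9 in WT (SD, n = 4 each), and the ranges overlapped. Foxo1 made up 48.4% to 53.1% of that sum in KO libraries and 34.5% to 40.9% in WT libraries. Foxo3 made up 27.5% to 36.0% in KO and 39.7% to 50.1% in WT. These shares were computed after the values had been seen and carry no test.

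A ratio of 2 genes within a library does not depend on how the library was scaled, so 10 ratios among Irs1, Irs2, Foxo1, Foxo3 and Foxo4 were compared between the groups. Irs2 over Foxo3 was 12.5, 10.8, 20.9 and 15.6 in KO1 to KO4, against 2.39, 6.95, 3.32 and 3.14 in WT1 to WT4. The groups did not overlap, and the mean log2 ratio was 1.997 higher in KO (exact two-sided permutation test, p = 0.0286, the smallest that 70 assignments allow, adjusted p = 0.0408 over the 10 pairs). Foxo1 over Foxo3 was 1.81, 1.77, 2.44 and 1.998 in KO1 to KO4, against 1.02, 1.30, 0.882 and 0.878 in WT1 to WT4. In every KO library Foxo1 thus exceeded Foxo3, while WT3 and WT4 had more Foxo3 than Foxo1 in normalized value, and the mean log2 ratio was 0.98 higher in KO (exact permutation test, adjusted p = 0.0408). Irs1 over Foxo3 was 0.534, 0.451, 0.723 and 0.487 in KO1 to KO4, against 0.279, 0.261, 0.147 and 0.165 in WT1 to WT4, a difference of 1.40 on the log2 scale (exact permutation test, adjusted p = 0.0408).

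The ratios of Irs2 to Foxo1, Irs2 to Foxo4, Irs1 to Foxo4 and Foxo1 to Foxo4 were likewise higher in all 4 KO libraries, by 1.01, 1.51, 0.91 and 0.50 on the log2 scale (exact permutation test, adjusted p = 0.0408 each). With these, 7 of 10 ratios passed, all at the smallest p that the permutation test allows. The ratios share genes, so these are not 7 separate results. The genes were also chosen with earlier results of these data known. Irs2 over Irs1 was 23.3, 23.9, 28.9 and 31.9 in KO1 to KO4, against 8.55, 26.6, 22.6 and 19.0 in WT1 to WT4. WT2 lay inside the KO range, and the log2 ratio of Irs1 over Irs2 differed by -0.60 (exact permutation test, p = 0.114, adjusted p = 0.127). Irs1 over Foxo1 and Foxo3 over Foxo4 overlapped too, with differences of 0.41 and -0.48 on the log2 scale (exact permutation test, adjusted p = 0.107 and 0.143). With any 1 KO library left out, the mean log2 ratio stayed 1.82 to 2.14 higher in KO for Irs2 over Foxo3 and 0.88 to 1.04 higher for Foxo1 over Foxo3. No adjusted p was then below 0.05. Leaving out 1 WT library also left 35 assignments, and 7 or 8 of the 10 ratios then passed. At the same number of assignments, the count thus differed by the group that lost a library. Without any 1 KO library p was 0.0571 for Irs2 over Foxo3 and 0.0286 for Foxo1 over Foxo3 (exact permutation test).

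**Figure D3:**
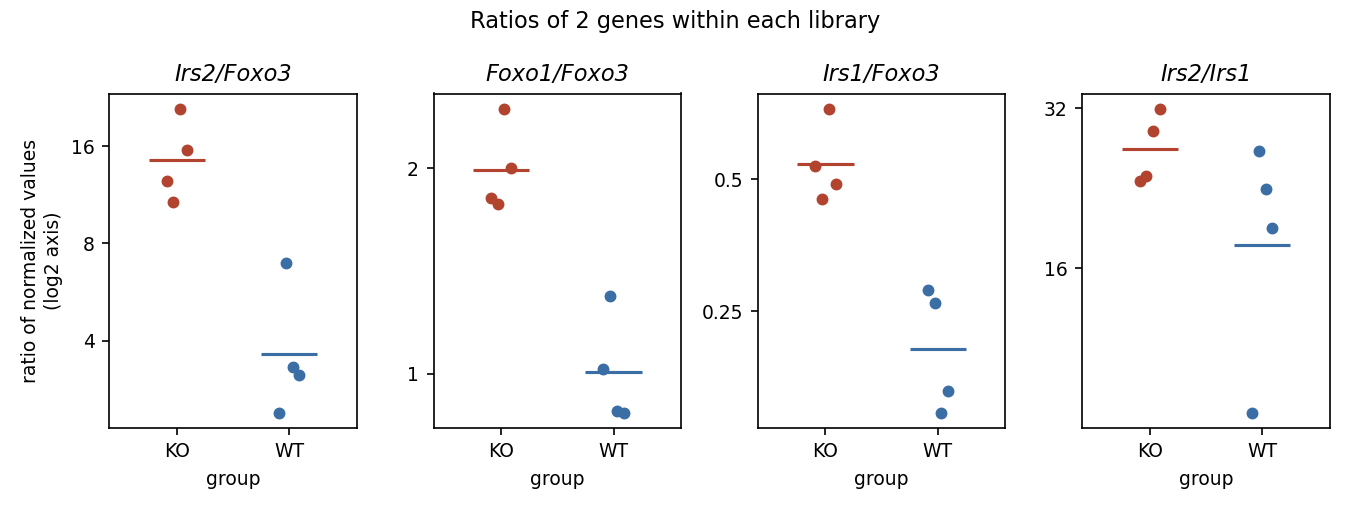
Irs2 over Foxo3, Foxo1 over Foxo3, Irs1 over Foxo3 and Irs2 over Irs1 within each library, on log2 axes that differ between panels, with KO left of WT and a bar at the mean of the log2 ratios (n = 4 each). Irs2 over Foxo3 runs between 10.8 and 20.9 in KO and between 2.39 and 6.95 in WT, and only Irs2 over Irs1, of the 4 shown, overlaps between the groups.

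Over the 8 libraries, 9 of the 10 pairs among these 5 genes include a gene whose groups lie apart, so a pooled correlation would mostly restate the group difference. For the remaining pair, Foxo3 and Foxo4, Pearson's r was 0.19 (exact permutation p = 0.679, adjusted p = 0.754 over 10 pairs) and Spearman's rho was -0.12 (exact permutation p = 0.793, adjusted p = 0.793). Without KO3 and WT3, the libraries farthest from the median of Foxo3, r was 0.36, and after centring within groups it was -0.45, so no relation held. With the same centring, as a description over 8 libraries, r was -0.58 for Irs2 and Foxo3, -0.49 for Irs1 and Irs2, 0.43 for Foxo1 and Foxo3 and 0.72 for Irs1 and Foxo4. For Foxo1 and Foxo3 this sign was positive, while their log2 fold changes between groups had opposite signs. KO2 was the highest KO library for both genes (1756 for Foxo1 and 990 for Foxo3), and for Foxo1 it lay far from the other KO libraries. The centred r without KO2 was not computed, so no relation is read from it.

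The gene with the pattern most like Irs2 over the 8 libraries, among 11477 genes with a mean of at least 50, was Rasd1 (Pearson's r = 0.99, and 0.95 after centring within groups). Btg2 (0.99 and 0.98), Fos (0.99 and 0.95), Mepce (0.98 and 0.99) and Ccnt2 (0.98 and 0.92) followed. Btg2 and Fos are immediate early genes, which cells transcribe within minutes of a stimulus, and Rasd1 is a dexamethasone-inducible Ras-related gene. For Foxo3 the most alike were Aatk (0.995 and 0.99), Amer1, Abl2, Lzts3 and Src (0.96 to 0.98), and for Irs1 they were Usp42, Tex2, Ankrd16, Adprhl2 and Klhl28 (0.94 to 0.97). These points share libraries and depth, the genes were the highest of many, and the values are given as a description.

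The level of immediate early genes ran with that of Irs2 over the libraries. All 20 of the list were in the table, and their summed value was 254809 to 435172 in KO and 84040 to 217926 in WT. At an unadjusted p below 0.05, 16 of 20 were higher in KO (4.34% of all genes), while 0 passed the adjusted threshold (limma). Nr4a1 and Dusp1 are also in the CREB and CRTC list below, so the counts of both lists share genes. Their median log2 fold change was 1.27, against -0.03 over all genes. Fos itself had 13099, 10272, 24890 and 16263 in KO1 to KO4, against 494, 5396, 1746 and 819 in WT1 to WT4. The mean centred log2 score of the list was 0.60, 0.28, 1.14 and 0.78 in KO1 to KO4, against -1.31, 0.27, -0.56 and -1.20 in WT1 to WT4. Among WT libraries its order was that of Irs2, with WT2 highest and WT1 lowest, and in both measures KO3 was the highest library. Acinar enzyme genes, 18 of 18 in the table, summed to 101405 to 273724 in KO and 38824 to 193802 in WT, and their score was 0.71, -0.36, 1.07 and 0.45 in KO1 to KO4, against 0.60, -1.70, -0.73 and -0.04 in WT1 to WT4. The part of either in the Irs2 difference was not tested, beyond the fit with the acinar score as a covariate, in which Irs2 differed by 1.63.

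**Figure D4:**
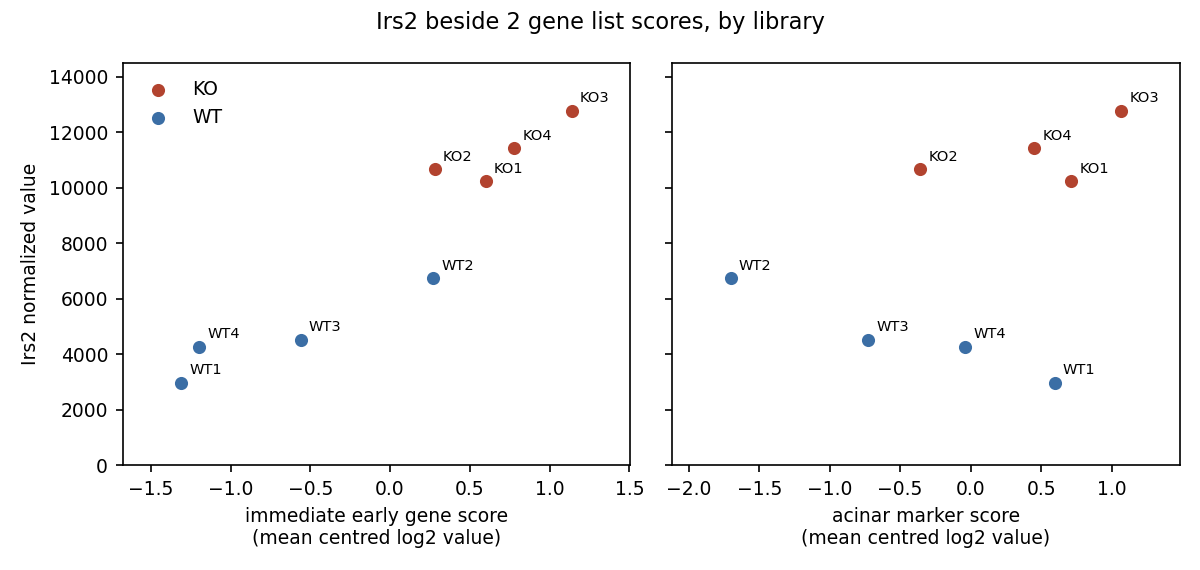
Normalized value of Irs2 in each library (linear axis from 0) against the mean centred log2 score of 20 immediate early genes and of 18 acinar genes, with KO and WT in separate colours. WT2, the WT library with the most Irs2, had an immediate early score of 0.27, next to KO2 at 0.28, and the lowest acinar score of all at -1.70.

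The rest of the pathway was followed in 8 lists, of which 119 of 124 genes were tested. Of these, 0 were higher and 1 was lower in KO at an adjusted p below 0.05, and 8 were higher and 11 lower at an unadjusted p below 0.05 (limma), where 4.34% of all genes were higher and 6.36% lower. The median log2 fold change was -0.06, against -0.03 over all genes. Of the ligands and other receptors, 0 of 6 had an unadjusted p below 0.05. Insrr, the insulin receptor-related receptor, was abundant at 5924 ± 381 in KO and 5411 ± 646 in WT (SD, n = 4 each) and differed by 0.14 on the log2 scale (adjusted p = 0.709). Of 10 other adaptors and of 10 genes in the phosphoinositide 3-kinase and PDK1 list, likewise 0 had an unadjusted p below 0.05, and Irs3 and Irs4 were not analysed here.

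Among 18 genes that restrain the pathway, 0 passed the adjusted threshold, and 0 were higher and 4 lower at an unadjusted p below 0.05 (4.34% and 6.36% of all genes). Trib3, a pseudokinase that binds AKT, had 113, 122, 143 and 147 in KO1 to KO4, against 494, 328, 228 and 207.5 in WT1 to WT4. All KO values were below all WT values, with a log2 fold change of -1.18 (SE of 0.24 and adjusted p = 0.116, limma). Ptpn2, a tyrosine phosphatase, had 626, 661, 523 and 638 in KO1 to KO4, against 1017, 936, 1131 and 750.3 in WT1 to WT4. Its groups lay apart as well, with a log2 fold change of -0.64 (SE of 0.14 and adjusted p = 0.119, limma). Ptpn1, the phosphatase PTP1B that acts on the insulin receptor, and Ppp2ca, a catalytic subunit of PP2A, had log2 fold changes of -0.40 (adjusted p = 0.354) and -0.26 (adjusted p = 0.404).

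In the mTOR and GSK3 branch, 17 of 21 genes had a negative log2 fold change and the median was -0.12, while 55.1% of all genes were negative with a median of -0.03. Under equal library sums the median of all genes was 0.05, so the number of negative values depends on the scaling. Such scaling moves this list along with all genes, and the offset of the list under it was not computed. None passed the adjusted threshold (limma), and 0 were higher and 3 lower at an unadjusted p below 0.05 (6.36% of all genes). These were Rheb, the GTPase that activates mTORC1 (-0.31, adjusted p = 0.330), Eif4ebp1, a repressor of translation (-0.74, adjusted p = 0.378), and Rptor, the RAPTOR subunit (-0.29, adjusted p = 0.417). Of 14 regulators of FOXO, 0 had an unadjusted p below 0.05, and Foxo6, the remaining FOXO gene, differed by -0.12 on the log2 scale (adjusted p = 0.803, limma).

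FOXO target genes had log2 fold changes of both signs. Of 26 listed, 23 were tested, 3 were higher and 3 lower at an unadjusted p below 0.05 (4.34% and 6.36% of all genes), and the median log2 fold change was -0.04. Gadd45a, a growth arrest gene that is also a p53 target, was the only gene of the 8 lists that passed the adjusted threshold. It had 222.2, 238, 203 and 200.01 in KO1 to KO4, against 431, 365, 477 and 419 in WT1 to WT4, and fell by 0.97 on the log2 scale (SE 0.12, adjusted p = 0.0320, limma). Bbc3, which encodes the BH3-only protein PUMA, had 479, 482, 708 and 589 in KO1 to KO4, against 232, 341, 180 and 223 in WT1 to WT4. Its log2 fold change was 1.23 (SE of 0.19 and adjusted p = 0.0526, limma). Txnip, which binds thioredoxin, had 2182, 2381, 3497 and 2913 in KO1 to KO4, against 688, 1662, 740 and 770 in WT1 to WT4, with a log2 fold change of 1.59 (SE of 0.28 and adjusted p = 0.0991, limma). Cited2, a transcriptional coregulator, differed by 1.002 on the log2 scale (adjusted p = 0.202). As for Irs2, the highest WT library was WT2 and the highest KO library KO3 for Bbc3, Txnip and Cited2.

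Of 17 genes of the CREB and CRTC branch, 5 were higher and 1 lower in KO at an unadjusted p below 0.05 (4.34% and 6.36% of all genes), and 0 passed the adjusted threshold. Dusp1 (2.63, adjusted p = 0.152), Per1 (0.54, adjusted p = 0.225), Nr4a2 (0.84, adjusted p = 0.225) and Sik1 (0.90, adjusted p = 0.229) led by p on the log2 scale, and all are known to be induced by cAMP. The lower gene, Ppargc1a, likewise known to be induced by cAMP, had 249, 143, 82.8 and 63.8 in KO1 to KO4, against 330, 249, 331 and 235 in WT1 to WT4. Only KO1 reached the WT range, and Ppargc1a differed by -1.27 on the log2 scale (adjusted p = 0.286, limma). Over the list, 8 log2 fold changes were positive and 9 negative, with a median of -0.01. Creb1 itself differed by -0.01 on the log2 scale (adjusted p = 0.993, limma) and Crtc2, its coactivator, -0.10 (adjusted p = 0.786, limma), named, like Ppargc1a, outside the rule for pathway genes. The study's text names Irs1, Foxo3 and Txnip among the genes deregulated in its own test of these same libraries. That test was run in sleuth and called more genes than the fit here. Of the immediate early genes, the study names Fos, Jun, Egr1 and Npas4 among others. The differences of all these genes here are thus no independent evidence.

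**Figure D5:**
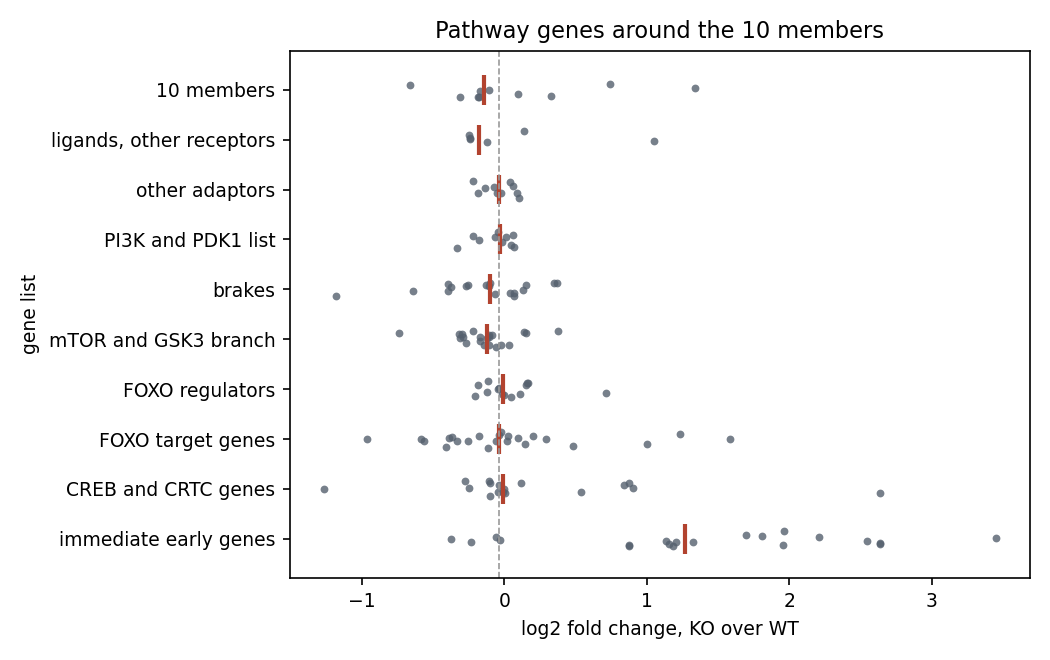
Log2 fold change, KO over WT, of each tested gene among the 10 members, the 8 pathway lists and the immediate early list, with a bar at each list's median and a dashed line at the median of all genes. The immediate early genes are centred at 1.27, the FOXO target genes spread between -0.97 and 1.59 around -0.04, and the medians of the members and of the other lists lie between -0.18 and -0.01, with all genes at -0.03.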

How the data were processed

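RNA was isolated from islets with the RNeasy kit, and stranded KAPA libraries were sequenced on an Illumina HiSeq instrument. Per the labels and the study's methods, the authors trimmed reads with cutadapt (1.13), pseudoaligned them with kallisto (0.46.1) to the Ensembl GRCm38 transcriptome and normalized gene totals in sleuth. The deposited table gives a normalized signal per gene and library (estimated reads divided by a size factor), and reads shared by similar transcripts are divided between them. Its columns of group differences, p-values, q-values and model variances hold the authors' own tests and were not used.

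Of 16684 lines, 476 repeats were dropped, and identifiers of 1 symbol were summed. Genes above 1 in at least 4 libraries were kept, and log2(value + 0.5) was compared with limma (3.58.1, R 4.3.3; trended and robust prior, no term but group, two-sided tests, Benjamini-Hochberg adjustment over 15960 genes). Log2 fold changes are on that scale. Count tests were not used, since only 64.7% to 74.3% of the low values lay within 0.05 of a whole number of reads. Single ratios and correlations were compared by exact permutation. Each library comes from 1 animal, as the study describes, so that p-values measure the spread between animals. The fit was tested on simulated data.

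The members and lists were chosen with earlier results of these data known. Named genes are the 10 members, up to 4 genes a list by smallest p, and the 5 genes most correlated with Irs1, Irs2 and Foxo3. Others named (Foxo6, Creb1, Crtc2, Ppargc1a and Fos among immediate early genes) were chosen after their values were seen. Alternatives were other pseudocounts, filters, scalings and priors, a replicate block, an acinar covariate and leaving out each library. Upstream sequences come from RefSeq (GRCm38.p6) and gene positions from GENCODE M21. Some listed genes are not reported here by name.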

Additional observations from a re-analysis of the deposited data

Results flagged for a closer look

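Of 48 groups of 4 libraries examined, 5 had a library far from the other 3 relative to the group's range, and chance gives about 1 in 20. Irs1 was 357 in KO4, against 438 to 447 in the other KO libraries. Foxo1 was 1756 in KO2, against 1466 to 1492 in the other KO libraries. Foxo4 was 171 in KO2, against 197 to 202 in the other KO libraries, and the Foxo1 over Foxo4 ratio was correspondingly 10.2 in KO2, against 7.23 to 7.50. The summed Y-linked genes were 117 in WT3, against 2367 to 2712 in the other WT libraries. Without WT3, the log2 fold changes of Irs2, Irs1 and Foxo3 were 1.35, 0.63 and -0.60.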

How the results depend on the processing

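In the 17 alternatives of the limma fit, 9 of the 10 members kept their sign. The exception, Igf1r, turned to -0.071 with the acinar covariate and ran from -0.0003581 (without KO3) to 0.178 when a library was left out. The 9 genes called across the table became 14 with a pseudocount of 1, 17 after quantile normalization, 1 without trend and robust prior, 3 with the acinar covariate and 1 to 58 when a library was left out, with 58 without WT2, 1 without KO2, KO3, KO4 or WT1, 3 without WT4 and 6 without KO1 or WT3. Scaling to equal sums gave 10 higher and 0 lower, against 6 higher and 3 lower as deposited, and 1163 higher and 483 lower at an unadjusted p below 0.05, against 693 and 1015, with the median log2 fold change moving to 0.05. The members called went up to 1, always Irs2, with a pseudocount of 1, the stricter filter, the replicate block and the acinar covariate, and were 0 to 1 when a library was left out. Deviations from the group means had correlations of -0.16, -0.03, -0.12 and 0.07 between same-numbered libraries. This does not show whether such libraries were prepared together. Under the replicate block 6 genes were called, Irs2 among them. With the block 0 of 10 ratios had an adjusted p below 0.05, but the smallest possible p was then 0.125, so that test says nothing. Leaving out a library gave 0 to 8 of 10 ratios, with 35 assignments each time. The count was 0 without any 1 KO library and 7 or 8 without any 1 WT library, so it went with the group that lost a library. Without a KO library Irs2 over Foxo4 still differed by 1.47 to 1.57 on the log2 scale. The lowest member value, Pik3r1 at 163 in KO3, stands far above the value of 1 read. For members of low value, such as Foxo4 and Insr, counting error may still be of similar size to the spread between libraries, which was not tested.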
